A study of Mus musculus with 3 samples.

Results

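Histone genes encode the proteins that package DNA into nucleosomes, and 63 of the 25697 probes on each array were assigned to 56 of them, out of 16593 genes in all. A probe was a member when its gene symbol in the platform's probe-to-gene table began with one of the histone prefixes. The table carries current symbols, so the members were 14 H2A probes (H2ac), 14 H2B probes (H2bc), 12 H3 probes (H3c), 10 H4 probes (H4c), 10 linker histone H1 probes (H1f) and 3 probes of the replacement histone H3.3 (H3f3a and H3f3b). Matched by gene identifier to a mouse gene table, 47 members lie on chromosome 13, the site of the large histone cluster once named Hist1, and 9 on chromosome 3, where the Hist2 cluster lies. No member began with H2af, since the genes of H2A.Z, H2A.X and macroH2A now have other symbols. Values of those genes are given separately.

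RNA of 3 mouse cultures was measured on Illumina bead arrays, with 1 array for each culture. Reverted cells (E3R) came from epiblast stem cells of the E3 line, which has a hybrid background, and are labelled as reverted. They were grown on gelatin with 1 µM PD0325901, an inhibitor of MEK, 3 µM CHIR99021, an inhibitor of GSK3, and 1000 U of LIF. Unreverted E3 epiblast stem cells, the primed type that comes from the post-implantation embryo, were kept on inactivated CF1 mouse embryonic fibroblasts with 5 ng/ml FGF2 and were lifted with collagenase IV. CGR8 embryonic stem cells shared substrate and medium with the reverted cells, and both were harvested on the dish. The basal KSR medium was common to all 3 cultures, and none had a further treatment. Cell line and cell state cannot be told apart in a comparison with CGR8, and medium, feeder layer and harvest cannot be told apart from cell state in a comparison with epiblast stem cells.

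Replication histones are made in bulk during S phase from clustered genes without introns, and their messages normally end in a stem-loop bound by SLBP in place of a poly(A) tail. Some clustered genes can also give polyadenylated transcripts. Replacement variants such as H3.3 are expressed throughout the cell cycle from genes outside the clusters, with introns and poly(A) tails. Amplification kits of the kind used here start from an oligo(dT) primer, so signals of clustered genes need not follow the total amount of their messages. The part of this in the results was not tested. Genes within a histone family are also nearly identical in sequence. Probe sequences were not used here, so the signal of a clustered gene may include that of its neighbours, and each such value belongs to its probe and is uncertain as to the gene.

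Markers matched the labels. Esrrb, an orphan nuclear receptor of embryonic stem cells, had log2 signals of 11.84 in reverted, 5.41 in epiblast and 11.76 in embryonic stem cells. Fgf5, a growth factor gene of the primed epiblast, was detected only in epiblast stem cells, at 8.57. Of 10 fibroblast markers, 1 was detected in reverted cells, 5 in epiblast and 1 in embryonic stem cells. The summed raw signal of these 10 probes was 827, 1413 and 902 in that order. Thy1 was at least 6.37-fold, Dcn at least 2.57-fold and Mmp2 2.89-fold lower in reverted than in epiblast stem cells, and Fbln2 and Col6a1 were detected in epiblast stem cells alone. The defining collagen genes Col1a1, Col1a2 and Col3a1 were not detected in any culture. Whether fibroblast RNA took part in the histone signals of epiblast stem cells was not tested. With 1 array a group there is no replicate check and no p-value, and the bead standard error given beside a value covers only the beads of that probe on these arrays.

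More histone probes were detected in epiblast stem cells than in the other cultures. At a detection p-value under 0.01, 37 of 63 members (58.7%) were detected in reverted cells, 48 (76.2%) in epiblast stem cells and 31 (49.2%) in embryonic stem cells. Over all probes these shares were 38.9%, 42.0% and 38.4%. The family with the widest spread was H4, with 7 of 10 probes detected in reverted cells, all 10 in epiblast stem cells and 4 in embryonic stem cells. The 3 probes of H3.3 were detected on every array. Members detected in 1 culture alone were 0 for reverted, 11 for epiblast and 0 for embryonic stem cells. Of all probes, 265, 1379 and 284 were detected in these cultures alone. The counts depended on the cutoff. At a p-value under 0.05, 41, 50 and 38 of 63 members were detected in reverted, epiblast and embryonic stem cells, and 9, 10 and 6 of 10 H4 probes. Members detected in 1 culture alone were then 0, 8 and 0, against 386, 1686 and 577 of all probes.

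**Figure D1:**
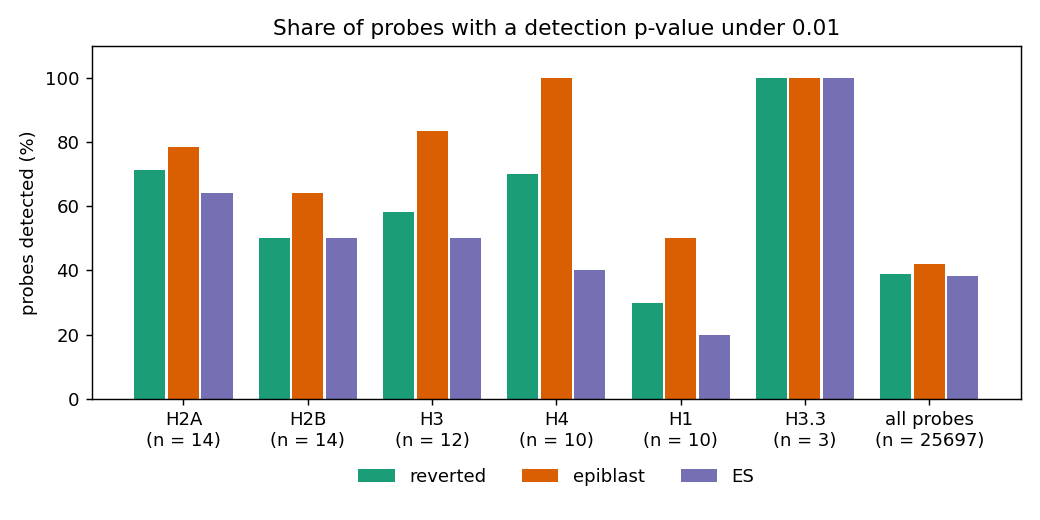
Share of probes detected (%, detection p-value under 0.01) in each histone family and over all probes, for reverted, epiblast and embryonic stem cells (ES). In the H4 family the bars show 7, 10 and 4 of 10 probes, while those of all probes lie between 38.4% and 42.0%.

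The remaining 15 probes were detected on no array. They belonged to H2ac1, H2ac6, H2ac18, H2bc1, H2bc6, H2bc8, H1f3, H1f4, H1f6, H1f7 and H1f8, to 1 probe each of H2bc4 and H2bc18, and to 2 probes of H3c7. H2ac1 and H2bc1 encode the testis histones TH2A and TH2B, H1f6 and H1f7 are linker histones of male germ cells, and H1f8 is that of the oocyte. The germ cell markers Ddx4, Sycp3, Prm1 and Tnp1 were not detected either, whereas Dazl was detected in reverted (log2 8.56) and embryonic stem cells (9.05).

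The comparison of reverted with unreverted epiblast stem cells asked how histone signals differed after reversion. Clustered histone probes were lower in reverted cells or within 2-fold, and none was 2-fold higher. Of the 46 members that had a value, 13 lay 2-fold or more below epiblast stem cells and 0 lay above by that much. The shares of all such probes were 11.5% below and 11.7% above. A probe detected in epiblast stem cells alone could only count as lower, so the 37 members detected on both arrays are also given: 10 were 2-fold lower and 0 higher, against 11% lower and 11.6% higher over all probes detected on both. On the sign alone, 29 of the 37 lay below 0 and 7 above, against 50.2% and 49.7% of all probes. Their median log2 difference was −0.48, against 0.00 over all probes. Splitting these into classes, 7 of 31 clustered H2A, H2B, H3 and H4 probes and 3 of 6 H1f and H3f probes were 2-fold lower, with medians of −0.26 and −0.94. Those 3 were both H1f10 probes and the brighter H3f3a probe, while the dimmer H3f3a probe lay above 0. The class medians depended on their members: over clustered and variant probes with a value they were −0.42 and −0.77. They were −0.48 and −0.57 once H2ax, H2az1 and Macroh2a1 joined the variants and H1f1 to H1f6 moved to the clustered genes.

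Among H4 probes, 5 of 10 were 2-fold lower in reverted cells, against 4 of 10 H3 probes with a value. Detected on both arrays the families were level, at 3 of 7 each. Each H4 gene encodes the same core histone. H4c6 had raw signals of 138 in reverted cells, 350 in epiblast and 118 in embryonic stem cells, with bead standard errors of 4.93, 16.2 and 4.74. It was thus highest in epiblast stem cells, and reverted cells were 3.29-fold lower than these (log2 difference −1.72 with a bead standard error of 0.13, and −1.18 when no background was removed). H4c8 was 2.83-fold lower in reverted than in epiblast stem cells, with raw signals of 102, 193 and 109 in reverted, epiblast and embryonic stem cells. H4c9 was 2.59-fold lower, with 124, 246 and 117. Under no background correction both were under 2-fold, at log2 −0.78 and −0.85. H4c12 and H4c18 were detected in epiblast stem cells alone. H4c12 had raw signals of 91.7, 236 and 95.3 in reverted, epiblast and embryonic stem cells, and H4c18 had 90.3, 220 and 98.1 in the same order. They were at least 4.92-fold and at least 4.45-fold lower in reverted cells, or log2 −1.21 and −1.11 without background correction. The other 5 H4 probes were within 2-fold: H4c11 at log2 −0.48 (raw signals 145, 199 and 125), H4c4 at −0.55 (107, 139 and 101), H4c14 at −0.16, H4c2 at −0.01, and H4c3 with a bound of −0.38.

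H3 probes measure genes of the replication forms H3.1 and H3.2. Those detected in both reverted and epiblast stem cells ranged from 2.61-fold lower in reverted cells to slightly higher. H3c4 had raw signals of 297 in reverted, 769 in epiblast and 260 in embryonic stem cells, and was 2.61-fold lower in reverted than in epiblast stem cells (log2 −1.39, bead standard error 0.09). H3c1 was 2.47-fold lower, with raw signals of 197, 451 and 150 in the same order. H3c6 was 2.01-fold lower, at 383, 806 and 278, but under 2-fold without background correction (log2 −0.89) and at an offset of 50 (−0.94). All 3 thus stood well above the other cultures in epiblast stem cells. H3c13 was 1.85-fold lower in reverted than in epiblast stem cells. H3c3, the single clustered H3 probe that was higher in reverted cells, was at log2 0.52 (bead standard error 0.20), with raw signals close to background (104 in reverted and 97.6 in epiblast stem cells). H3c10 lay at log2 −0.20 and H3c8 and H3c7 had bounds of −0.16 and −0.69.

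Most H2B probes lay close together. H2bc7 had raw signals of 286, 570 and 220 in reverted, epiblast and embryonic stem cells and a log2 difference of −0.96 between reverted and epiblast stem cells (bead standard error 0.08). Close to it lay H2bc9 at −0.82 (raw signals 202, 349 and 172), H2bc11 at −0.86 (207, 369 and 178) and H2bc15 at −0.99 (132, 223 and 134). H2bc12 was at −0.57. H2bc14 was the one past 2-fold, at −1.07 (raw signals 118, 198 and 106), but at −0.61 without background correction. H2bc4 differed by 0.16 on the log2 scale, less than its bead standard error of 0.18. H2bc3 had a bound of −0.23, and 1 probe of H2bc18 was detected in epiblast stem cells with no measurable difference.

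H2A probes, in contrast, lay near 0 between reverted and epiblast stem cells. The 10 detected in both lay between log2 −0.22 and 0.35, with 5 below 0, 4 above and H2ac20 at 0.00. H2ac12 had raw signals of 9636 in reverted, 13947 in epiblast and 5842 in embryonic stem cells, and normalized log2 signals of 13.47, 13.50 and 12.47. H2ac24 had raw signals of 16376, 26486 and 15475, at the upper end of arrays whose brightest probes read 17183, 29455 and 20001 in that order. At that end quantile normalization sets the scale, so raw and normalized differences part. With scaling to a common median instead, the H2A probes ran from −0.50 to 0.11, and 8 of 10 were below 0. None was past 2-fold under that scaling either. H2ac8 and H2ac4, both dim, had log2 values of −0.42 (a bound) and −0.20.

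**Figure D2:**
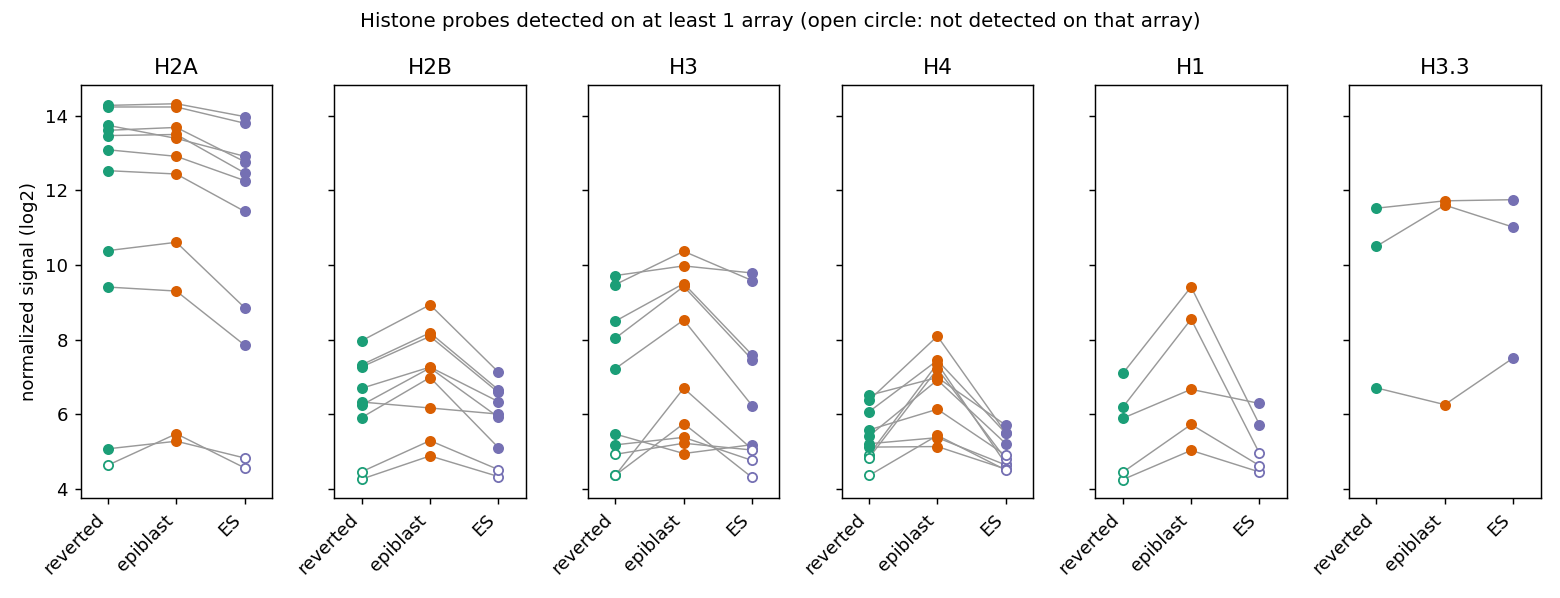
Normalized signal (log2) of the 48 histone probes detected on at least 1 array, by family, in reverted, epiblast and embryonic stem cells (ES). Each line is 1 probe, and an open circle marks an array on which it was not detected; most H2B, H3, H4 and H1 lines peak in epiblast stem cells, while H2A lines are level between reverted and epiblast stem cells and lower in embryonic stem cells.

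Linker histone H1 binds DNA between nucleosomes. H1f10, the gene of the variant H1.X outside the clusters, had a large difference that its 2 probes shared. The first probe had raw signals of 185 in reverted, 763 in epiblast and 125 in embryonic stem cells, with bead standard errors of 9.01, 42.9 and 5.40. The second had 129, 457 and 102, the last not detected at the cutoff used. Reverted cells were 4.99-fold lower than epiblast stem cells by the first probe (log2 −2.32, bead standard error 0.14) and 5.14-fold lower by the second (−2.36, bead standard error 0.16). With no background removed these were −1.88 and −1.66. H1f2, a linker histone gene within the Hist1 cluster, was within 2-fold at −0.77, with raw signals of 117, 172 and 153. H1f5 had a bound of −0.67, and H1f1 was detected in epiblast stem cells alone with no measurable difference.

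H3.3 is the replacement form of H3, deposited outside replication. H3f3b had raw signals of 2605 in reverted, 3768 in epiblast and 3636 in embryonic stem cells, and a log2 difference between reverted and epiblast stem cells of −0.20 (bead standard error 0.07). The 2 probes of H3f3a disagreed. The brighter had raw signals of 1366, 3492 and 2288 in the same order and was 2.15-fold lower in reverted than in epiblast stem cells (log2 −1.10, bead standard error 0.07). The dimmer had 157, 146 and 267 and was higher in reverted than in epiblast stem cells, at log2 0.45 (bead standard error 0.17). No single direction can therefore be given for H3f3a.

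**Figure D3:**
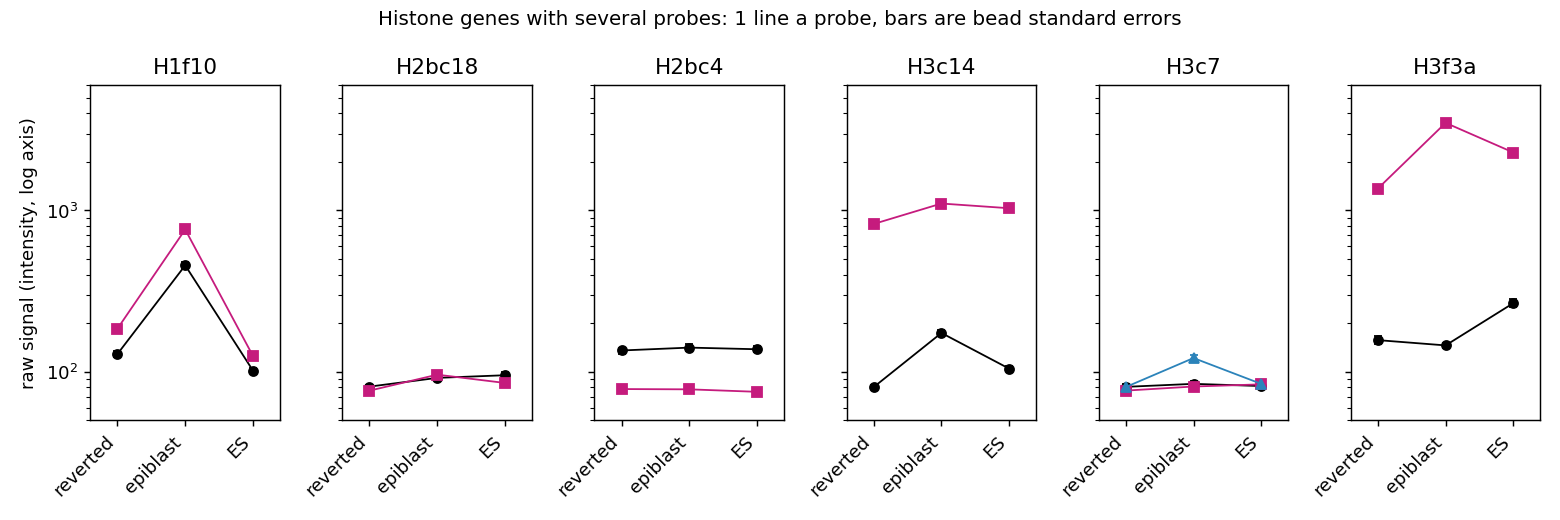
Raw signal (intensity, log axis) of the 6 histone genes with several probes in reverted, epiblast and embryonic stem cells (ES), 1 line a probe, with bead standard errors, which are mostly smaller than the symbols. The lines of H1f10 run together and those of H3f3a do not.

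The probes of H3c14 disagreed as well. The dimmer was detected in epiblast stem cells alone, with raw signals of 80.4, 174 and 105 in reverted, epiblast and embryonic stem cells, and was at least 3.12-fold lower in reverted than in epiblast stem cells (log2 −1.64, but −0.77 without background correction). The brighter had 825, 1105 and 1033 and lay within 2-fold at −0.26.

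The comparison of reverted with CGR8 embryonic stem cells addressed whether histone signals of the 2 lines differed on the same substrate and medium. Clustered histone probes were mostly higher in reverted cells, by less than 2-fold for most. Of the 36 members that had a value, 6 lay 2-fold or more above embryonic stem cells and 0 lay below by that much, against 1.71% above and 1.39% below of all such probes. With detection on both arrays the counts were 5 and 0 of 31, against 1.57% and 1.41% of all probes. Of 26 clustered probes detected in both cultures, 24 lay above 0 and 2 below, where 49.6% of all probes detected on both lay above 0 and 50.3% below. The median log2 difference of these 26 was 0.74, against −0.40 for the 5 H1f and H3f probes detected in both. The class value depended on its members: over the variant probes with a value it was −0.31, but 0.21 once H2ax, H2az1 and Macroh2a1 joined and H1f1 to H1f6 left.

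H2A probes had the largest part in this. H2ac21, a gene of the Hist2 cluster, had raw signals of 675 in reverted, 715 in epiblast and 319 in embryonic stem cells, and its log2 difference of reverted over embryonic stem cells was 1.56 (bead standard error 0.09). H2ac11 followed, with raw signals of 1259, 1708 and 574 (log2 difference 1.53), then H2ac22 with 5306, 6166 and 3012 (1.09). H2ac12, given above, was at 1.00, and at 0.99 without background correction or 0.91 by the authors' processed values. All 9 H2A probes detected in both cultures were higher in reverted cells, from 0.30 to 1.56, and all 9 remained above 0 under each background and scaling alternative. Of probes detected in both cultures, the 7 of H2B lay between 0.32 and 0.84 and the 4 of H4 between 0.21 and 0.87. The other 3 H4 probes with a value had bounds from 0.02 to 0.48. None of these H2B and H4 probes was past 2-fold, but 1 of each family was by the authors' processed values. Clustered H3 was mixed: H3c1 was at 0.99 and H3c6 at 0.91, but H3c13 at −0.11 and the brighter H3c14 probe at −0.07.

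Among the variants, H1f10 was 2.59-fold higher in reverted than in embryonic stem cells by its first probe (log2 1.37, bead standard error 0.17) and at least 2.12-fold higher by its second. Both were under 2-fold without background correction, at 0.77 and 0.47, as they were at 0.98 and 0.65 with an offset of 50. The 3 probes of H3.3 were lower in reverted cells, at −0.23 for H3f3b and at −0.51 and −0.80 for the brighter and the dimmer probe of H3f3a. H1f2 was at −0.40.

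The third comparison set epiblast against CGR8 embryonic stem cells, and here the differences were greatest. Of the 46 members that had a value, 22 lay 2-fold or more above embryonic stem cells and 1 lay below by that much, against 12.9% above and 12.8% below of all such probes. Among the 31 members detected in both cultures, 17 were 2-fold higher and 1 lower, against 12.2% and 12.6% of all probes detected on both. By sign, 28 of the 31 lay above 0 and 3 below, against 48.6% and 51.3% of all probes. Clustered probes detected in both had a median log2 difference of 1.30, and 16 of 26 were 2-fold higher.

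H1f10 was 12.9-fold higher in epiblast than in embryonic stem cells by its first probe (log2 3.69, but 2.65 without background correction) and at least 10.9-fold by its second (log2 3.45, but 2.13 in that setting). H4c6 had a log2 difference of 2.59, but of 1.60 when no background was removed. H3c1 was 4.91-fold higher (log2 2.29, or 1.62 in that setting), H3c4 3.89-fold and H3c6 3.76-fold. H2bc14 was 3.67-fold higher (log2 1.88, or 0.94 with no background removed), H2bc7 3.49-fold and H2ac11 3.37-fold. Every family but H3.3 thus held probes 2-fold higher in epiblast stem cells. H4c12 and H4c18, not detected in embryonic stem cells at the cutoff used, were at least 4.79-fold and at least 4.33-fold higher, bounds that shrank to log2 1.20 and 1.10 when no background was removed. These sizes thus rest on the background model, as do calls of dim probes: H2bc15, H4c4, H4c8 and H4c11, 2-fold higher here, had log2 values of 0.78, 0.44, 0.86 and 0.70 with no background removed. H2ac22, at log2 1.00, was just under the threshold in the same setting, at 0.98. The probes of H3c14 disagreed here too. The dimmer, not detected in embryonic stem cells, was at least 3.03-fold higher (log2 1.60), while the brighter was at 0.19. H3 probes 2-fold higher went from 4 to 3 without background correction. H3f3b differed by −0.03 on the log2 scale. The dimmer probe of H3f3a was 2.38-fold lower in epiblast stem cells (log2 −1.25, but −0.80 with no background removed and −0.97 at an offset of 50), while the brighter was at 0.59. These values share the epiblast array with the first comparison and the embryonic stem cell array with the second.

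**Figure D4:**
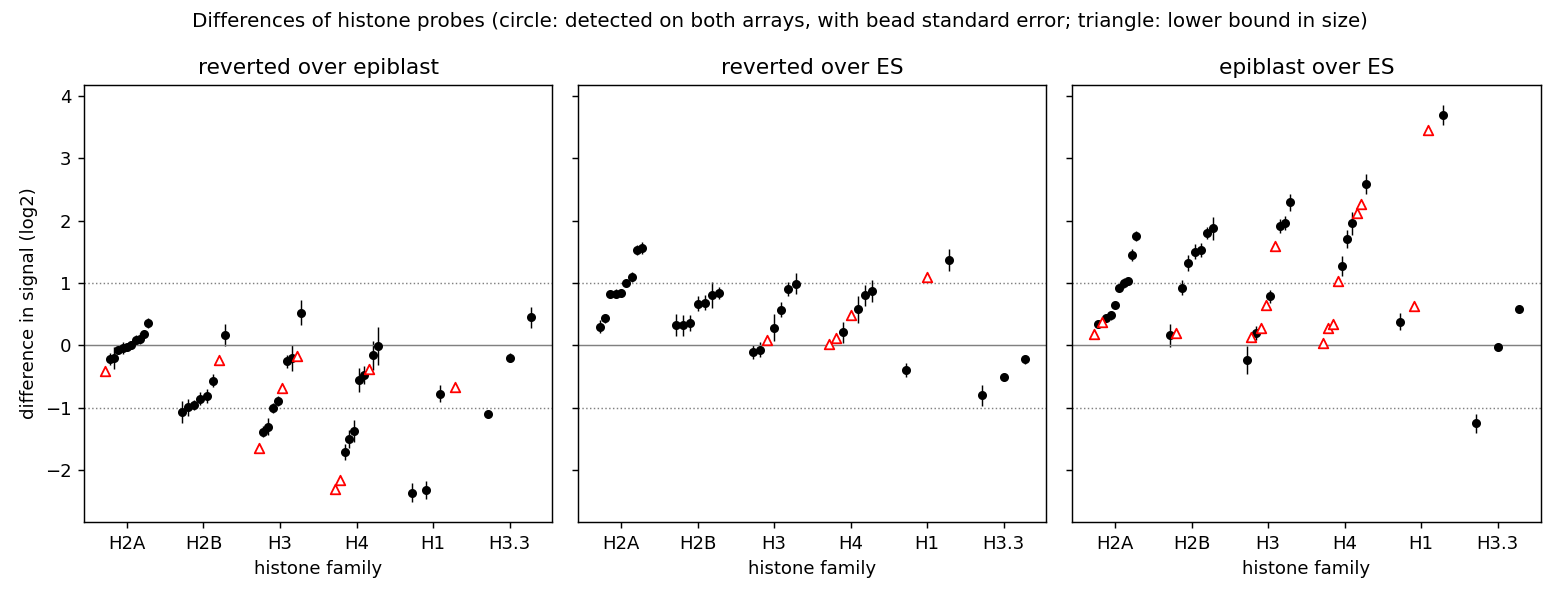
Log2 difference in signal of each histone probe with a value, by family, for the 3 comparisons; circles are probes detected on both arrays with the bead standard error, triangles are lower bounds in size, and dotted lines mark 2-fold. Probes of H2B, H3, H4 and H1 lie mostly below 0 for reverted over epiblast and above 0 for epiblast over embryonic stem cells (ES), whereas H2A probes are near 0 in the first and above 0 in the other 2.

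Across the 26 clustered probes detected on all 3 arrays, 6 were highest in reverted, 19 in epiblast and 0 in embryonic stem cells, and 1, H2ac20, was tied between reverted and epiblast stem cells. The lowest signal was in reverted cells for 2, in epiblast for 1 and in embryonic stem cells for 23. Over all such probes 27.5%, 41.9% and 30.5% were highest in reverted, epiblast and embryonic stem cells, and 26.7%, 43.9% and 29.4% lowest. The order epiblast, then reverted, then embryonic stem cells held for 17 of the 26, against 22.7% of all probes. By cluster, the order held for 17 of 22 probes of the chromosome 13 cluster and for 0 of 4 of the chromosome 3 cluster, where H2ac20 was level and H2ac21 higher in reverted than in epiblast stem cells, and H3c13 and the brighter H3c14 probe were lowest in reverted cells. H2ac20 was level after quantile normalization, with raw signals of 16062 in reverted and 25021 in epiblast stem cells. Orders are given for the main normalization alone. For reverted over epiblast stem cells, 5 of 10 H2A probes detected in both were below 0, but 8 with scaling to a common median.

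H2A and H2B genes often lie head to head and share the stretch between them. For 6 such pairs the promoter windows of the RefSeq table overlapped on opposite strands, and 4 pairs were detected in both reverted and epiblast stem cells. In each of these 4 the H2B probe was the lower in reverted over epiblast stem cells: H2bc7 at −0.96 with H2ac7 at 0.35, H2bc15 at −0.99 with H2ac15 at −0.08, H2bc11 at −0.86 with H2ac11 at −0.22, and H2bc12 at −0.57 with H2ac12 at −0.03. This held in 4 of 4 pairs under each background and scaling alternative. Most H2B probes lay below the H2A probes in this comparison whether paired or not, so the count does not speak to the pairing. In reverted over embryonic stem cells both members of each pair were above 0, and the H2B probe was lower in 3 of 4. In epiblast over embryonic stem cells it was lower in 2 of 4, and in 1 of 4 by the authors' processed values.

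**Figure D5:**
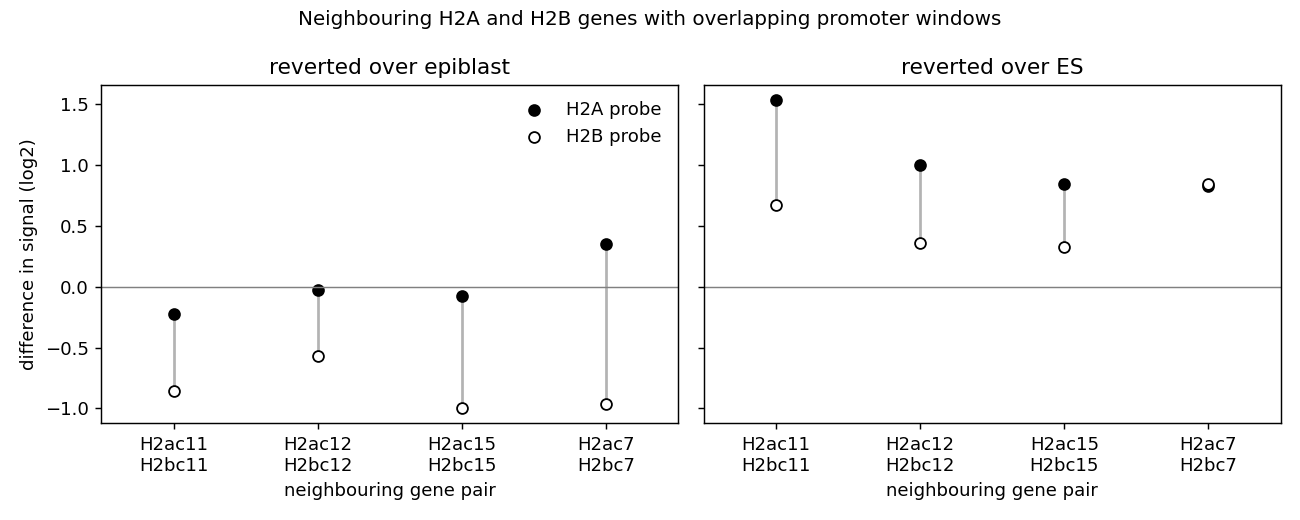
Log2 difference in signal of neighbouring H2A (filled) and H2B (open) genes with overlapping promoter windows, for reverted over epiblast and reverted over embryonic stem cells (ES). On the left the H2A points lie between −0.22 and 0.35 and the H2B points between −0.99 and −0.57.

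Promoter sequences from RefSeq (build GRCm38.p6) were matched by gene identifier for 52 of the 56 genes. They are shown for H2bc14, H3c4 and H3f3a, which had the largest epiblast over embryonic stem cell difference of the H2B, H3 and H3.3 families among genes with an entry and detection on every array. The sequences run 5′ to 3′ on the gene's strand from 250 bases before the annotated start to 50 after it. Capitals mark 3 motifs searched on both strands, and overlapping matches would merge; ATTGG and TTTATA are matches on the other strand. CCAAT is bound by the factor NF-Y, TATAAA is a form of a core promoter box, and the octamer ATTTGCAT is known from H2B promoters.
H2bc14 (chr13:21721794-21722093, plus strand): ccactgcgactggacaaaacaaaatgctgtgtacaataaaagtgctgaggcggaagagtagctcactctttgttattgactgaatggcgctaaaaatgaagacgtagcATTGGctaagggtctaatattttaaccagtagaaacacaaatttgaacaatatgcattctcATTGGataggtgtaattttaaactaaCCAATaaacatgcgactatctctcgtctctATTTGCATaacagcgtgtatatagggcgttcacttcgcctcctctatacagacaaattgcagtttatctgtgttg
H3c4 (chr13:23575513-23575812, plus strand): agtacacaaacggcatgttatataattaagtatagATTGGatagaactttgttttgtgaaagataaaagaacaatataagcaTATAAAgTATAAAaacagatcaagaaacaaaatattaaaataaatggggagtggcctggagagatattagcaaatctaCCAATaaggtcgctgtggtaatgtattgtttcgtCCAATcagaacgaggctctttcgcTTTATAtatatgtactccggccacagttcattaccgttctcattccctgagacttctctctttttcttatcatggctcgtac
H3f3a (chr1:180813556-180813855, minus strand): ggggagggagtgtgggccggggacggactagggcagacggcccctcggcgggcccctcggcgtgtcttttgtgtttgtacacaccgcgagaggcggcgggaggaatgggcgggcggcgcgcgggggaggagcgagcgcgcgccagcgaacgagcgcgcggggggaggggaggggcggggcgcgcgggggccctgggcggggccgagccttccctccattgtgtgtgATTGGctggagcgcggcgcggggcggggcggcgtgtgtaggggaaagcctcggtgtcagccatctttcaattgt

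The H2bc14 window held 3 CCAAT matches and the octamer 25 bases before the annotated start. The H3c4 window held 3 CCAAT matches and 3 TATAAA matches, the latter 168, 161 and 32 bases before the start. The H3f3a window held 1 CCAAT match. Windows picked in the same way for H2A, H4 and H1 are not shown. H2ac11 held 5 CCAAT matches, H4c6 held 0 CCAAT matches and 1 TATAAA match, and H1f10 held 0 matches of any of the 3 motifs. The H4c6 match lay 250 bases before the annotated start, at the far end of its window. CCAAT was found in 44 of 53 member windows, against 37.4% of 32851 windows of all genes. It was in all 14 H2A, 12 H2B and 7 H3 windows but in 2 of 9 H4 windows. The octamer was in 7 of 12 H2B and 6 of 14 H2A windows and in 0 of 7 H3 and 0 of 9 H4 windows, against 1.74% of all windows. TATAAA was in 56.6% of member windows, against 13.6% of all windows. As paired H2A and H2B windows overlap, these counts are not independent. A letter match describes the window and does not show that a factor binds there.

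Histone genes whose symbols fall outside the prefixes, most of them variants, were looked at after their values were seen. H2ax, the H2A.X gene whose product is phosphorylated at DNA breaks, had log2 signals of 10.09 in reverted, 11.03 in epiblast and 9.44 in embryonic stem cells, the order seen for most clustered probes. H2az1, which encodes H2A.Z, had 12.86, 12.66 and 12.86, and Macroh2a1 10.20, 10.21 and 9.77. Cenpa, the histone H3 variant of centromeres, had 12.74, 12.97 and 12.72. These 3 were within 2-fold in every comparison. H4f16, an H4 gene apart from the clusters, was detected in epiblast stem cells alone, at 5.66. Its probe is not counted among the 10 H4 members. H2aj and Hils1 were not detected.

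Genes that make histone messages were mostly within 2-fold. Of 17 listed, 15 were on the array and 10 had a value for reverted over epiblast stem cells, with 0 past 2-fold in either direction and a median log2 difference of −0.16, where 12.4% of all genes with a value were lower and 12.7% higher. Ccne1, the cyclin E1 gene whose kinase drives histone transcription, was at −0.93, Cpsf2, a subunit gene of the cleavage complex of histone messages, at 0.84, and Srrt, a cap-binding partner gene, at −0.82. Slbp, Casp8ap2, Lsm11, Cpsf3 and Eri1 were not detected. Against embryonic stem cells, reverted cells again had 0 of 10 past 2-fold (1.81% of all genes higher and 1.54% lower). Epiblast stem cells had 2 higher, Ccne1 at 1.54 and Srrt at 1.10, and 1 lower, Cpsf2 at −1.35 (13.9% and 13.4% of all genes).

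Among DNA replication genes of S phase, differences ran both ways. Of 19 that could be compared, 3 lay 2-fold or more above epiblast stem cells in reverted cells and 1 lay below by that much, with a median of 0.37. Over all genes 12.7% were higher and 12.4% lower. The replicative helicase genes Mcm7 and Mcm6 were at 1.28 and −1.20, and Uhrf1, which guides maintenance methylation, at 1.22. For reverted over embryonic stem cells 0 of 19 were past 2-fold (median 0.06), where 1.81% of all genes were higher and 1.54% lower. For epiblast over embryonic stem cells 1 was higher and 3 were lower (median −0.10; 13.9% and 13.4% of all genes), among them Uhrf1 at −1.46. Of 10 mitotic genes with a value, Cdk1 was 2-fold lower in reverted than in epiblast stem cells, at −1.32, and 0 were higher (median −0.23), against the same 12.4% and 12.7%. For epiblast over embryonic stem cells 1 of these 10, the mitotic kinase gene Plk1, was 2-fold lower, at −1.55, and 0 were higher. Over all genes 13.4% were lower and 13.9% higher. The median of the 10 was 0.18, with 7 above 0 and 3 below. In reverted over embryonic stem cells 0 of the 10 were past 2-fold (median −0.09), against 1.81% of all genes higher and 1.54% lower.

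Histone chaperones carry histones to DNA. Of 21 that could be compared, 2 lay 2-fold or more above epiblast stem cells in reverted cells and 1 below by that much, with a median of −0.21, against 12.7% and 12.4% of all genes. Atrx, which with Daxx deposits H3.3, was at least 2.45-fold higher, and Nap1l4 2.07-fold. Vps72, a subunit gene of complexes that load H2A.Z, was 2.41-fold lower. In epiblast over embryonic stem cells 5 of 21 were higher and 1 lower (median 0.02), against 13.9% and 13.4% of all genes. Besides Vps72, at a bound of 1.81, these included Ipo4, an importin that carries H3 and H4, at 1.72 and Nasp, a chaperone of H3 and H4, at 1.31. Reverted cells differed from embryonic stem cells by 2-fold in 0 of 20 (1.81% of all genes higher and 1.54% lower), the largest being Ipo4 at 0.81.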

How the data were processed

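RNA of 3 mouse cell cultures was measured, with 400 ng of total RNA and 12 h of in vitro transcription per array, per the labels' protocols. The authors deposited 3 columns per array: the raw intensity of each probe, the bead standard error of that intensity, and a detection p-value. The submitters' processing notes name BeadStudio. The raw intensities were background-corrected from the detection p-values with an offset of 16, quantile-normalized and set to log2 with limma 3.58.1 (neqc) in R 4.3.3. Later steps used Python 3.11.15, pandas 2.3.3, numpy 2.4.6 and matplotlib 3.10.9. A table of intensity values processed by the authors, by a method not given in the sources used here, served as an alternative, with empty cells set to its lowest value, 8.

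Each probe was kept separate. A probe was detected at a detection p-value under 0.01. An undetected probe entered at the lowest detected signal of its array (log2 5.06, 4.87 and 5.10 for reverted, epiblast and embryonic stem cells), or at its own normalized signal where that was greater, which makes the difference a bound. Probes were counted at 2-fold or more. "At least" marks such a bound. Genes of related lists took the probe with the highest mean signal, with symbols updated by gene identifier for 23962 probes. With 1 array a group no test was possible, and the number of arrays limits the precision. Normalization and calling were tested on simulated arrays modelled on the embryonic stem cell array, where only probes well above background were changed. That test cannot speak to probes near background or to arrays that differ in range.

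Members, lists and the rules for named genes were chosen with earlier results of these data known. Any detected member could be named, with all 3 signals where it passed 2-fold, and up to 3 genes of each related list by size of difference in each comparison. Prefix classes were fixed for older symbols, which placed H1f1 to H1f6, linker genes of the Hist1 cluster, beside the variants; their regrouping was added after the data were seen.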

Additional observations from a re-analysis of the deposited data

How the results depend on the processing

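Of 135 counts recomputed under alternatives, 109 stayed within 1.5 times and 26 did not. For reverted over epiblast stem cells, members 2-fold lower went from 13 to 8 and clustered ones from 10 to 5 without background correction, and to 6 and 4 at 3-fold; with the authors' processed values 1 member, H3c3, was 2-fold higher. For reverted over embryonic stem cells, members 2-fold higher went from 6 to 3 both without background correction and at an offset of 50, to 0 at 3-fold and to 2 without H2A probes. Clustered ones were 0 at 3-fold, and H1f and H3f probes went from 2 to 0 without background correction, with the offset of 50 and at 3-fold, and to 1 with detection on both arrays, with 1 probe a gene and with the mean of a gene's probes. For epiblast over embryonic stem cells, members 2-fold higher went from 22 to 14 at 3-fold, clustered ones from 20 to 13 without background correction and to 12 at 3-fold, and H1f and H3f probes from 2 to 1 with detection on both arrays and with 1 probe a gene. The single member 2-fold lower gave way to 0 without background correction, with the offset of 50, at 3-fold, with 1 probe a gene and with the mean of a gene's probes. The cause was not tested, except that a stricter threshold or fewer probes lower a count by construction.

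No probe past 2-fold changed its direction. Without background correction the fold was over 1.5 times smaller for 5 of 13 probes in reverted over epiblast, 2 of 6 in reverted over embryonic and 11 of 23 in epiblast over embryonic stem cells, so sizes of dim probes depend on the background model. Leaving out testis histones could change no count, since none was detected, and H1f1 to H1f6, of which none was past 2-fold, could change none by joining the clustered genes. Adding the variants outside the prefixes and moving H1f1 to H1f6 changed the median of the variant class for reverted over embryonic stem cells to 0.21, against −0.31 as first classed, so no direction is given for that class. No paired analysis was possible because the labels give 1 array a group.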
